A study of Mus musculus with 48 samples.

Results

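Lung metastases of the same mouse breast cancer were compared by the route that seeded them. Tail vein-derived lung metastasis sub-clones (TV-LuM) came from 4T1 cells injected into the tail vein, and node-derived ones (AxLN-LuM) from lung metastases that arose after the cells had been placed in an axillary lymph node (AxLN). Members were taken from the sample titles: 3 TV-LuM sub-clones (tumor 1 and tumor 2 of day 14, tumor 1 of day 38) and 3 AxLN-LuM sub-clones (tumor 1 of day 14, of day 36 and of day 43), with 3 arrays each, which makes 18 of the 48 arrays and 6 of the 13 sub-clones in the series. The tumor numbers are those of the titles and do not link tumors across days. The titles give AxLN-LuM 1 of day 36 and of day 43 different source samples. A further AxLN-LuM sub-clone and an AxLN sub-clone that the titles call removed entered no main comparison. 4T1 is a carcinoma line of Balb/c mice that spreads on its own to nodes, lung and bone. The study's methods give adult Balb/c mice as hosts and describe outgrowth of each tumor in culture under 6-thioguanine, to which 4T1 is resistant, so all 6 sub-clones share that selection. The reporter lines had been kept in puromycin, and the methods add further antibiotics to the ex vivo cultures only as appropriate. The labels name no drug treatment. The AxLN-LuM titles name a line that carries Renilla luciferase and mCherry (mCh/rL), and the TV-LuM titles name no reporter. Fat pad (MFP) sub-clones, whose titles name a line that carries firefly luciferase and GFP (GFP/fL), AxLN sub-clones and both parental lines complete the series. Each sub-clone is 1 cultured line, its arrays, which the titles number as biological replicates, are repeat samples of that line, and the labels do not say which sub-clones came from the same mouse. The question was whether cells recovered from one organ differ by how they arrived.

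A cell delivered into a tail vein reaches the lung within the first passage of venous blood, and has to lodge in small vessels and leave them. A cell that starts in a node first grows among lymphocytes, then leaves by efferent lymph or by node vessels before it meets the same lung. Carcinoma cells move between epithelial states, held by E-cadherin, claudins and keratins, and more mesenchymal states, and repressors of the SNAI and ZEB families silence junction genes by binding E-box sequences. The integrated stress response is a translation-control pathway in which ATF4, ATF3 and CHOP switch on genes for amino acid supply and for limiting growth.

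Values are log2 intensities from which the average of the parental arrays of that plate, both lines weighted equally, was taken away, so that 0 is the parental level. A sub-clone's value is the mean of its 3 arrays. Their SD within a sub-clone, as a root mean square over the tested genes, was 0.15 to 0.175, and single genes can vary more. Values below are listed in one order throughout: TV-LuM 1 day 14, TV-LuM 2 day 14, TV-LuM 1 day 38, then AxLN-LuM 1 of days 14, 36 and 43. Plate 1 held TV-LuM 1 day 14 and AxLN-LuM 1 of days 14 and 36, and plate 2 held the other 3. A difference is TV-LuM minus AxLN-LuM, given with its standard error (SE) from limma, and apart means that all 3 sub-clones of one group lay beyond all 3 of the other.

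The cultures carried carcinoma markers, and most host markers did not pass the intensity filter. The summed intensity of 13 carcinoma markers on the array was 15600 to 19300 in TV-LuM arrays and 12800 to 15300 in AxLN-LuM arrays. The keratins Krt8 and Krt18 stood at 11.62 and 11.83 in TV-LuM, as log2 intensities. Of 24 leukocyte markers 8 passed the intensity filter, of 15 endothelial ones 3, of 14 fibroblast and smooth muscle ones 5 and of 16 lung epithelial ones 3. In TV-LuM and AxLN-LuM, group means near the floor of the arrays were 2.37 and 2.38 for Ptprc (CD45) and 2.89 and 2.79 for Pecam1 (CD31). They were 2.69 and 2.76 for Dcn (decorin) and 2.28 and 2.35 for Sftpc (surfactant protein C). Other members were well above the filter, in the parental lines too. Cd14 had 6.84 and 6.32 (parental 6.32), Flt1 6.87 and 7.16 (7.09) and Pdgfra 6.70 and 6.97 (6.62). Abca3 had 7.46 and 7.33 (7.26). Foxj1 had 5.17 and 4.54 (4.28) and H2-Ab1 4.69 and 4.23 (4.01), above the parental level in both groups. The summed leukocyte markers ran from 322 to 496 in TV-LuM, from 235 to 438 in AxLN-LuM and from 277 to 369 in parental arrays. A culture with fewer cells expressing a gene and one with less RNA per cell cannot be told apart in these data.

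The position of a sub-clone along the difference between the parental lines did not always follow its label. Along the 200 genes that differed most between the parental lines, where mCh/rL lies at 0.5 and GFP/fL at -0.5, AxLN-LuM 1 day 14 had a slope of -0.83 although its title names mCh/rL. The other AxLN-LuM sub-clones had 0.54 (day 36) and 0.43 (day 43), and the TV-LuM sub-clones 0.50, 0.64 and 0.52. MFP 1 and MFP 2, whose titles name GFP/fL, had 0.010 and 0.345. The slope thus did not track the labelled line in them either, and it cannot decide which line a sub-clone came from. Over all genes AxLN-LuM 1 day 14 correlated with the other AxLN-LuM sub-clones at 0.13 and -0.21 and with the TV-LuM ones at -0.12, 0.25 and -0.11, as a description across 11565 genes in which sub-clones of one plate share a baseline. The library labelled AxLN-LuM 1 day 14 is therefore kept as labelled. Differences that moved by over 1.5 times when it was left out are also given without it, list medians near 0 excepted.

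**Figure D1:**
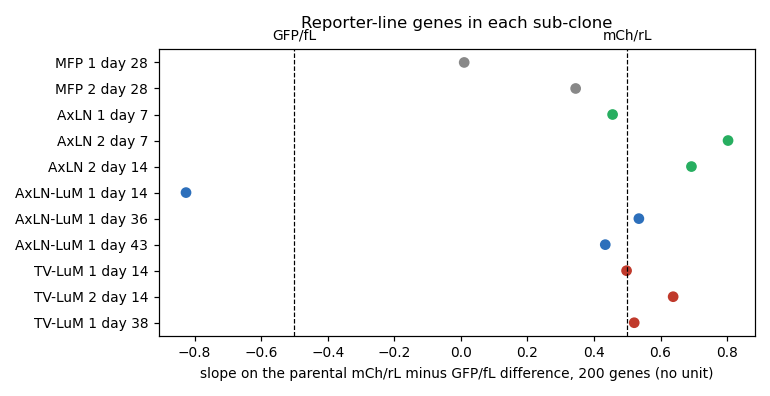
Slope of each of the 11 sub-clones (rows) on the difference between the parental lines over 200 genes (horizontal axis, no unit), with dashed lines at the parental positions of 0.5 and -0.5. The 3 TV-LuM sub-clones lie between 0.50 and 0.64, beside AxLN-LuM of days 36 and 43 at 0.54 and 0.43, while AxLN-LuM 1 day 14 lies at -0.83. MFP 1 and MFP 2, titled GFP/fL, lie at 0.010 and 0.345, away from the GFP/fL position of -0.5.

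No gene was called between the routes. The limma fit tested 11565 genes, and 0 (0%) had a Benjamini-Hochberg adjusted p under 0.05, the lowest being 0.422. At an unadjusted p under 0.05 there were 569 genes with higher values in TV-LuM (4.92% of those tested) and 598 with lower values (5.17%). Sub-clones were apart for 637 genes with TV-LuM higher (5.51%) and for 711 with TV-LuM lower (6.15%), and the median difference over all genes was -0.01. An exact permutation test, two-sided, over the 6 sub-clones cannot go below 0.1, which it gave for genes that were apart. The parental lines differed in 1485 of the same genes (12.8%) by limma at the same threshold, in 4 arrays each. That count takes arrays as replicates, as does a fit of the routes that called 1986 genes, and neither can be set against the test over sub-clones. In a fit of the 18 arrays of the 6 sub-clones the sub-clone entered as a random effect (correlation within a sub-clone 0.816). The MFP and AxLN sub-clones, which enter the spread of the main fit, were left out of it. There limma called 8 genes at adjusted p of 0.019 to 0.035. Atf3, Acox2, Slc4a11, St6galnac2 and Ddit4 had higher values in TV-LuM, and Epha4, Sema3e and Wnk1, a kinase of ion transport, had lower ones. These 8 calls also draw on arrays, with the same correlation used for every gene. Limma over the means of only the 6 sub-clones called 0 genes (lowest adjusted p 0.824). Everything named in the following, these 8 genes included, is a measured value that did not pass the main test between routes over all genes.

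The TV-LuM sub-clones correlated with each other more than the AxLN-LuM ones did, as a description with no test. Correlations over genes among the TV-LuM sub-clones were 0.26, 0.37 and 0.47, against -0.21, 0.09 and 0.13 among the AxLN-LuM ones. Between the groups they ran from -0.12 to 0.44, with a median of 0.25. AxLN-LuM 1 day 36 was nearest to TV-LuM 1 day 38 (0.44) and TV-LuM 2 day 14 (0.41), and AxLN-LuM 1 day 43 to TV-LuM 1 day 14 (0.39), so that both late node-derived sub-clones correlated more with a tail vein sub-clone than with each other (0.09). The median SD over genes was 0.20 in TV-LuM and 0.23 in AxLN-LuM.

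The plates gave differences that shared little. The difference on plate 1, from 1 TV-LuM and 2 AxLN-LuM sub-clones, and that on plate 2, from 2 and 1, share no array and no baseline after subtraction. They had the same sign for 46.0% of genes and correlated at -0.19 (Pearson) and -0.15 (Spearman) over 11565 genes, which are not independent replicates. Without AxLN-LuM 1 day 14 the share was 43.6%. TV-LuM was higher on both plates for 22.0% of genes and lower on both for 23.9%.

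**Figure D2:**
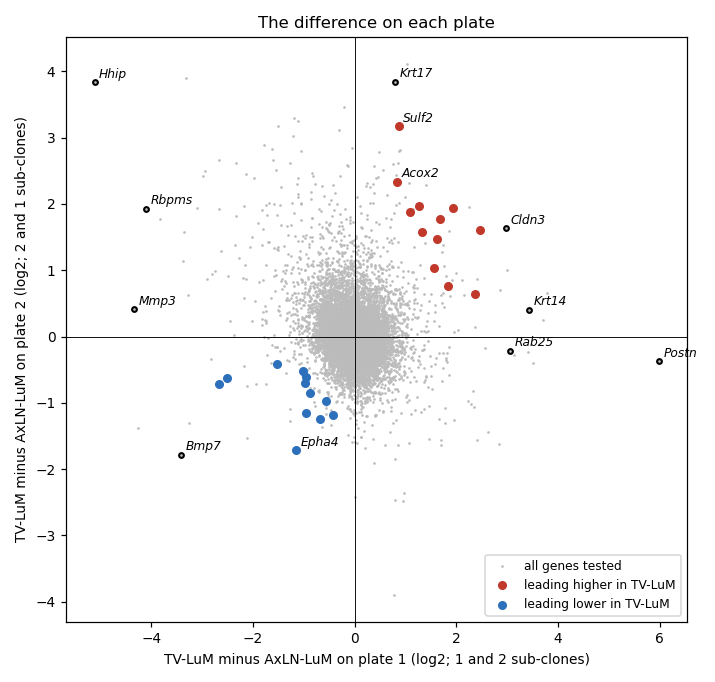
TV-LuM minus AxLN-LuM on plate 1 (horizontal axis, log2) and on plate 2 (vertical axis, log2), with 1 point for each of 11565 genes. The leading genes in red and blue lie on the same side on both plates by the way they were chosen, while 46.0% of all genes do, and Postn, Hhip and Rbpms are far from 0 on plate 1 with the opposite sign on plate 2.

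The leading genes with higher values in TV-LuM, chosen as apart with an unadjusted p under 0.01 and ranked by size, included Slc40a1, Sulf2, Slc4a11 and Acox2. Slc40a1, which encodes the iron exporter ferroportin, stood at 1.56, 1.77 and 2.93 in TV-LuM and at -0.54, 0.30 and 0.57 in AxLN-LuM, a difference of 1.98 (SE 0.40, limma adjusted p = 0.422). All 3 TV-LuM sub-clones were above every AxLN-LuM one, and the late TV-LuM sub-clone was the highest. Sulf2, a secreted sulfatase that trims heparan sulfate, stood at 0.65, 1.38 and 1.74 and at -0.99, 0.55 and -1.61, a difference of 1.94 (SE 0.47, limma adjusted p = 0.429), of which plate 1 gave 0.87 and plate 2 3.17. The gap was narrow on plate 1, where AxLN-LuM 1 day 36 lay just under TV-LuM 1 day 14. Slc4a11, a member of the bicarbonate transporter family, stood at 1.10, 1.17 and 1.97 and at -0.97, 0.66 and -0.40 (difference 1.65, SE 0.39). Acox2, a peroxisomal oxidase of branched-chain fatty acids and bile acid precursors, had 1.08, 2.09 and 2.62 against 0.22, 0.28 and 0.02 (difference 1.76, SE 0.34), and the node-derived sub-clones lay close together near the parental level.

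Signaling and membrane genes followed. Rapgef5, an exchange factor for Rap GTPases, had 1.26, 0.58 and 1.19 against -0.95, -0.39 and -1.06, a difference of 1.81 (SE 0.48) that was nearly equal on the 2 plates (1.93 and 1.95). St6galnac2, a sialyltransferase of O-linked sugar chains, had 0.63, 1.27 and 1.54 against -0.91, -0.01 and -0.48 (difference 1.61, SE 0.34). Mall, a proteolipid of the MAL family of membrane proteins, had 1.11, 1.53 and 2.84 against -0.56, 0.14 and 0.60 (difference 1.76, SE 0.44). These 3 genes were above the parental level in every TV-LuM sub-clone. Arfgef3, a member of the ARF exchange factor family, was unlike them: it stood at 0.69, 0.20 and -0.39 in TV-LuM and at -0.63, -2.93 and -1.70 in AxLN-LuM, so that the difference of 1.92 (SE 0.50) lay mainly in AxLN-LuM values below the parental level. Apobec1, the cytidine deaminase that edits apolipoprotein B mRNA, had 1.26, 1.11 and 0.23 against -1.74, -0.47 and 0.02, with a difference of 1.59 (SE 0.47) that was 2.36 on plate 1 and 0.65 on plate 2.

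The leading genes with lower values in TV-LuM included Epha4, Sema3e, Pgf and Dll1. Epha4, a receptor for ephrins, stood at -0.90, -1.74 and -0.99 in TV-LuM and at 0.29, 0.24 and 0.35 in AxLN-LuM, a difference of -1.50 (SE 0.37, limma adjusted p = 0.445). The 3 node-derived sub-clones lay close together just above the parental level, the day 14 one among them. Sema3e, a semaphorin that signals through plexin D1, had -0.18, -0.33 and -0.55 against 0.58, 1.03 and 0.26 (difference -0.98, SE 0.22). Pgf, placental growth factor, a ligand of the receptor VEGFR1, had -2.20, -0.29 and -1.08 against 1.09, -0.15 and 0.03 (difference -1.51, SE 0.44), and its TV-LuM level of 3.10 as a log2 intensity lay at the filter of 3.11. Dll1, a Notch ligand, had 0.10, -0.95 and -0.66 against 1.13, 0.20 and 0.17 (difference -1.0, SE 0.31), with TV-LuM 1 day 14 only just below the node-derived values.

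Epdr1, an ependymin-related secreted protein, had -2.12, -1.11 and -1.05 against 0.71, 0.07 and -0.46 (difference -1.53, SE 0.36), which was -2.51 on plate 1 and -0.62 on plate 2. Gamt, the last enzyme of creatine synthesis, had -0.31, -0.32 and -0.99 against 0.55, 0.59 and 0.20 (difference -0.98, SE 0.23). Dixdc1, a DIX-domain protein of the Wnt pathway, had -0.15, -0.04 and -0.73 against 1.02, 0.05 and 0.85 (difference -0.95, SE 0.26). Epdr1 and Gamt were below the parental level in every TV-LuM sub-clone, while Dixdc1 lay at about that level in TV-LuM 2 day 14. Nnat, the imprinted neuronatin gene, differed by -0.98 (SE 0.29), and the TV-LuM and AxLN-LuM sub-clones nearest to each other were the late ones at -0.72 and -0.68. Havcr2, the gene of the inhibitory receptor TIM-3 known from T cells, differed by -1.06 (SE 0.32) at a TV-LuM level of 2.84, under the filter. Tnfrsf22, a decoy receptor for TRAIL in mice, differed by -0.94 (SE 0.19) and Rbmx, a nuclear RNA-binding protein, by -0.90 (SE 0.21). Both belong to families with close copies, so their probe sets may read more than 1 gene.

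The 24 leading genes had the same direction on both plates and without AxLN-LuM 1 day 14, which follows from their being apart. The parental lines differed in the same direction, mCh/rL over GFP/fL, in 6 of the 12 genes higher in TV-LuM and in 5 of the 12 lower ones by limma, and in the opposite direction in 0, against 6.2% of all genes called higher and 6.6% called lower in mCh/rL. The 6 were Slc40a1, Atf3, Acox2, Slc4a11, Apobec1 and Ddit4, and the 5 were Epha4, Havcr2, Dll1, Nnat and E2f8. Without AxLN-LuM 1 day 14, the sub-clone on the GFP/fL side, the 12 higher genes had differences of 1.01 to 2.48 and the 12 lower ones of 0.65 to 1.50 in size. The part of the reporter lines in these values was not tested. A legend in the study's supplement names mCh/rL cells for tail vein injection in an assay of seeding, without saying that these sub-clones came from it.

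**Figure D3:**
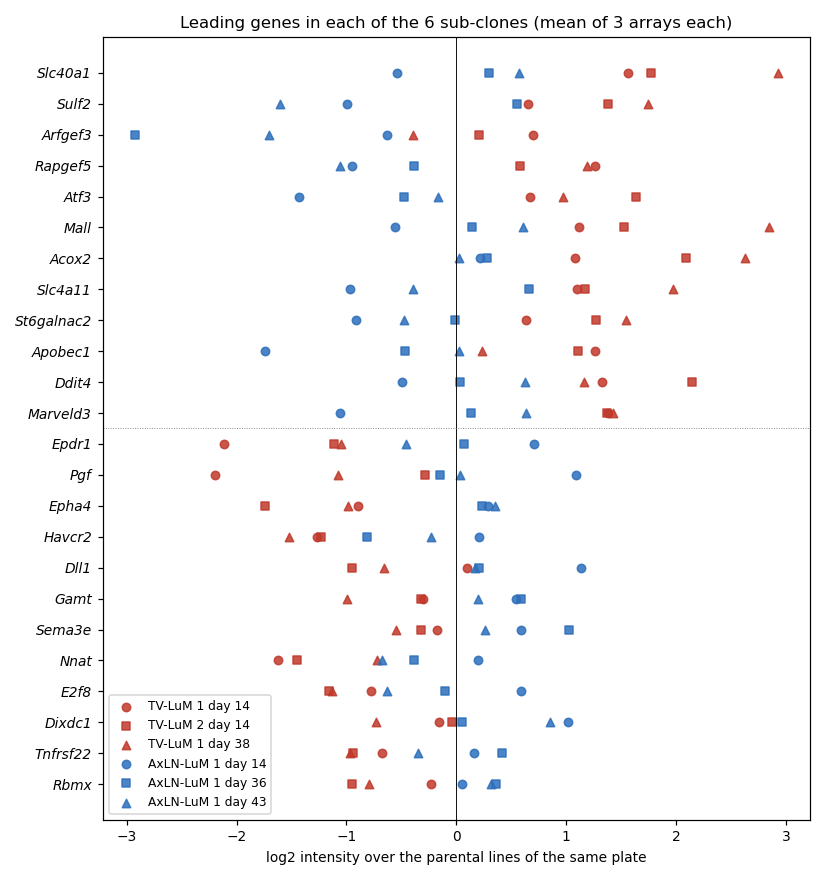
Log2 intensity over the parental lines of the same plate (horizontal axis) for the 24 leading genes (rows), 1 point for each sub-clone, TV-LuM in red and AxLN-LuM in blue, each the mean of 3 arrays. Red and blue do not overlap in any row because separation was part of the choice, and gaps are wide for Acox2 and Epha4 and narrow for Nnat and Dll1.

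Epithelial junction and keratin genes had mostly higher values in TV-LuM, and their size depended on 1 sub-clone. Of 43 listed genes 35 were tested, 33 had higher and 2 lower values, 10 were apart with TV-LuM higher (5.51% of all genes) and 0 with TV-LuM lower (6.15%). The median difference was 0.62 against -0.01 over all genes, and 0 were called. TV-LuM was higher on both plates in 23 of the 35 and lower on both in 0, against 22.0% and 23.9% of all genes. Plate 1 gave a median of 0.74 and plate 2 of 0.24. Without AxLN-LuM 1 day 14 the median was 0.26, 29 had higher values and 10 were apart with TV-LuM higher, where 9.16% of all genes were. With TV-LuM lower 0 were apart, against 9.5% of all genes. In the mCh/rL parental line 8 of the 35 were called higher and 0 lower by limma, against 6.2% and 6.6% of all genes. The part of the lines in the difference between routes was not tested.

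The list's sub-clone medians were 0.52, 0.14 and 0.58 in TV-LuM and -0.59, 0.18 and 0.12 in AxLN-LuM, so AxLN-LuM 1 day 14 was the one below the parental level and TV-LuM 2 day 14 lay between the other node-derived medians. Epcam, the epithelial cell adhesion molecule, stood at 0.90, 0.32 and 0.99 in TV-LuM and at -0.47, 0.12 and 0.12 in AxLN-LuM, a difference of 0.82 (SE 0.23, limma adjusted p = 0.457) and of 0.62 without that sub-clone. Cdh1, which encodes E-cadherin, stood at 0.52, 0.17 and 0.42 and at -1.05, 0.03 and -0.21 (difference 0.78, SE 0.28, and 0.46 without it). In both genes the 3 TV-LuM sub-clones were the highest of the 6. Elf3, an epithelial ETS transcription factor, had 0.92, 0.41 and 0.71 against -1.22, -0.08 and 0.19 (difference 1.05, SE 0.34, and 0.63 without it). Ocln, the tight junction protein occludin, had 0.76, 0.55 and 0.84 against -0.34, 0.51 and -0.32 (difference 0.77, SE 0.22). Esrp1, an epithelial splicing regulator, had 0.63, 0.41 and 0.72 against -0.94, 0.11 and 0.30 (difference 0.76, SE 0.60, and 0.38 without it). Marveld3, a tight junction protein and one of the leading genes, had 1.38, 1.37 and 1.43 against -1.06, 0.14 and 0.63, a difference of 1.49 (SE 0.35) and of 1.01 without AxLN-LuM 1 day 14. F11r, the junctional adhesion molecule JAM-A, had 0.61, 0.41 and 0.60 against -0.35, 0.07 and 0.23 (difference 0.56, SE 0.17).

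The members with the largest differences did not separate the groups. Cldn3, a claudin of tight junctions, stood at 1.09, -0.15 and 1.48 in TV-LuM and at -4.40, 0.62 and -0.97 in AxLN-LuM, and its difference of 2.39 (SE 1.09) was 0.98 without AxLN-LuM 1 day 14. Rab25, an epithelial GTPase of membrane recycling, stood at 1.13, -1.27 and 1.72 and at -4.21, 0.36 and 0.44, and its difference of 1.66 (SE 1.24) became 0.13. Krt14, a basal keratin, stood at 2.54, 0.21 and 2.94 and at -3.08, 1.30 and 1.17, and its difference of 2.10 (SE 1.14) became 0.66. The low value of AxLN-LuM 1 day 14 carried each of these. Cldn4 (1.47, SE 0.76) and Dsg2, a desmoglein of desmosomes (1.25, SE 0.54), were of the same kind, with 0.50 and 0.48 without it. Krt17, a keratin of basal and stressed epithelium, differed by 2.60 (SE 1.35) through 1 TV-LuM sub-clone, day 38, at 6.92.

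Mesenchymal genes had no common direction. Of 28 listed genes 16 were tested, 8 with higher and 8 with lower values in TV-LuM, with a median of -0.03. With TV-LuM lower 1 was apart, against 6.15% of all genes. That one was Axl, a receptor kinase linked to mesenchymal states, at -0.40, -0.47 and -0.84 in TV-LuM and -0.11, 0.32 and -0.27 in AxLN-LuM (difference -0.55, SE 0.17, and -0.59 without AxLN-LuM 1 day 14). Snai1, an E-box repressor of E-cadherin, differed by -0.57 (SE 0.24, and -0.34 without that sub-clone) and Vim, vimentin, by -0.53 (SE 0.24), both with overlap. S100a4 differed by -1.35 (SE 0.94) through TV-LuM 1 day 38, which stood at -3.58 while the other 5 sub-clones lay from -0.27 to 1.07.

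**Figure D4:**
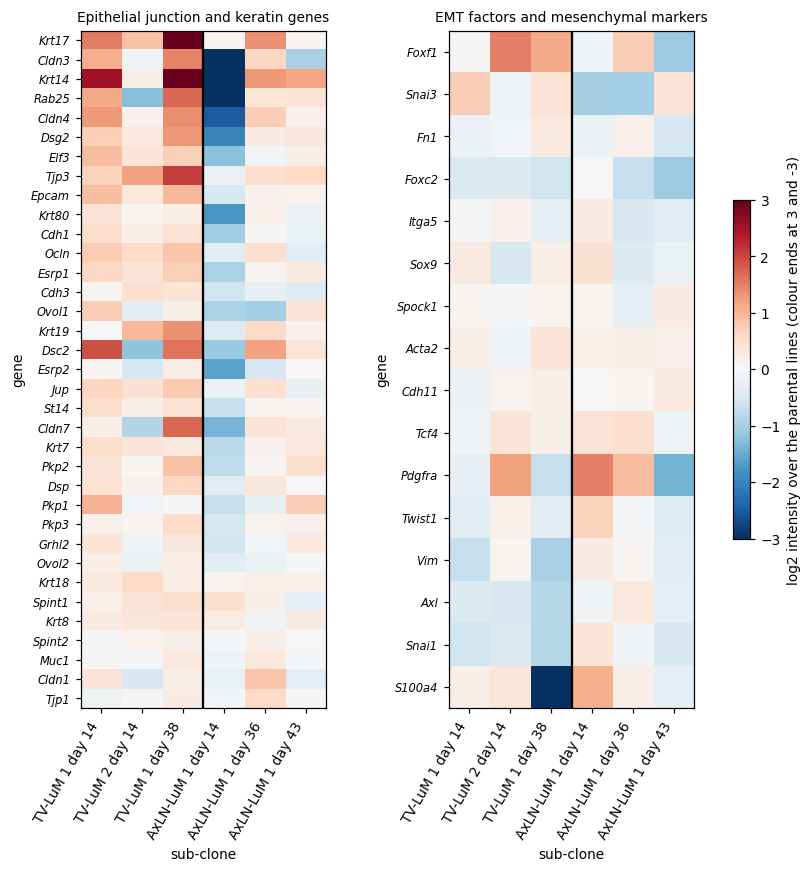
Log2 intensity over the parental lines (colour, red above and blue below, ends at 3 and -3) in the 6 sub-clones (columns, TV-LuM left of the black line) for the 35 epithelial and 16 mesenchymal genes tested (rows, by difference). The blue column of AxLN-LuM 1 day 14 runs through most of the epithelial rows, and the rows of Epcam, Cdh1 and Elf3 are redder in all 3 TV-LuM columns than in the other AxLN-LuM ones.

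Promoters of 4 epithelial genes are shown because this group had the largest median of the lists with at least 10 tested genes, and the 4 were picked because each holds the E-box read by SNAI and ZEB repressors. The window of Krt14, from the same list, did not hold it. The windows run from 250 bases before to 50 after the gene start (RefSeq, GRCm38.p6), written 5′ to 3′ on the gene's strand, with CACCTG or its reverse complement CAGGTG in capitals. Epcam lies at chr17:87635729-87636028 (plus strand), Elf3 at chr1:135258423-135258722 (minus), Rab25 at chr3:88548230-88548529 (minus) and F11r at chr1:171437311-171437610 (plus).
Epcam: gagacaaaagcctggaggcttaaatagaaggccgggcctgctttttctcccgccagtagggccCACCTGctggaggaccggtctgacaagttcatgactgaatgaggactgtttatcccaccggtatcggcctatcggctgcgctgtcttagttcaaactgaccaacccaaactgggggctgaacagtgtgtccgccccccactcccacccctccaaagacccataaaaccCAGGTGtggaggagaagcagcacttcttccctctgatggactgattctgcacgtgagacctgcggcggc
Elf3: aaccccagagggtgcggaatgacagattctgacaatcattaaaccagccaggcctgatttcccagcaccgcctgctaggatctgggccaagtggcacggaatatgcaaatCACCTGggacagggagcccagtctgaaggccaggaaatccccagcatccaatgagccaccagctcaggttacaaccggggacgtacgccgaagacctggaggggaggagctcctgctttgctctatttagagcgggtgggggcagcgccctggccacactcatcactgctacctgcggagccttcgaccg
Rab25: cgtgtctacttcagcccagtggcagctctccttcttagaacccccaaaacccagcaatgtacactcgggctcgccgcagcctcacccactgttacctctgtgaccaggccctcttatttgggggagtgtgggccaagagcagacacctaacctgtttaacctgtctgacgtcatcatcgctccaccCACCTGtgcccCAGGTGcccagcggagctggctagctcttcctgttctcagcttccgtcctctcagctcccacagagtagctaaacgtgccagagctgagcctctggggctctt
F11r: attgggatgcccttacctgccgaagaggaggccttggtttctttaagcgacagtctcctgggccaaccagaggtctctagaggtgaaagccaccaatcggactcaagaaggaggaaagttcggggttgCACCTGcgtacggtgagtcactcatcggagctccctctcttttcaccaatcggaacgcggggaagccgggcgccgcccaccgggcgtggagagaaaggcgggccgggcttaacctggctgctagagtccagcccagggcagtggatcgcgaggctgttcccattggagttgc
Of the 35 tested epithelial genes 20 were matched to 23 such windows, and 16 of these (69.6%) held the motif on either strand, against 18.5% of the windows of all tested genes and 20.2% of 32851 windows of the same length. The share was 24.4% for the genes apart with TV-LuM higher and 18.5% for those with TV-LuM lower. A match is a description of the letters and not a shown site. Junction genes are known targets of these repressors, so the share of this list describes the list and not the routes.

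Genes of the integrated stress response had higher values in TV-LuM, led by 1 sub-clone. Of 30 listed genes 25 were tested, 24 with higher and 1 with a lower value, and 3 were apart with TV-LuM higher (5.51% of all genes), with a median of 0.37. The sub-clone medians were 0.04, 0.75 and -0.49 in TV-LuM and -0.69, -0.04 and -0.13 in AxLN-LuM, highest in TV-LuM 2 day 14 and lowest in AxLN-LuM 1 day 14, and late TV-LuM lay below both late AxLN-LuM sub-clones. Without AxLN-LuM 1 day 14 the median was 0.24, and among the late sub-clones alone it was -0.35. The same genes differed between the parental lines, with a median of 0.60 for mCh/rL over GFP/fL and 22 of 25 called higher in mCh/rL by limma, against 6.2% of all genes, and the part of the lines in the difference between routes was not tested.

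Atf3, a stress-induced transcription factor, stood at 0.67, 1.64 and 0.97 in TV-LuM and at -1.43, -0.47 and -0.16 in AxLN-LuM, a difference of 1.78 (SE 0.43, limma adjusted p = 0.429) and of 1.41 without AxLN-LuM 1 day 14. Ddit4 (REDD1), an inhibitor of mTORC1, stood at 1.33, 2.14 and 1.16 and at -0.49, 0.03 and 0.62 (difference 1.49, SE 0.30), where the parental lines differed by 1.53. Nupr1, a stress-induced chromatin protein, stood at 0.69, 1.36 and 0.78 and at -0.84, 0.29 and 0.09 (difference 1.10, SE 0.29), where the lines differed by 0.92. In these 3 genes every TV-LuM sub-clone was above every AxLN-LuM one of the main comparison. The AxLN-LuM sub-clone titled removed stood at 2.96 for Atf3 and 2.00 for Nupr1, above all TV-LuM values. For Ddit4 it stood at 0.27, below them. In Trib3, a pseudokinase that feeds back on ATF4, with 0.23, 2.24 and -0.66 against -1.80, -0.07 and -0.56 (difference 1.41, SE 0.68, and 0.91 without AxLN-LuM 1 day 14), and in Ddit3, which encodes CHOP, with 0.71, 2.05 and -0.66 against -0.86, -0.46 and -0.72 (difference 1.38, SE 0.54), the late TV-LuM sub-clone lay among the node-derived ones.

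Promoters of Atf3, Nupr1 and Trib3 show the composite element of this pathway, TGATGNAA or its reverse complement TTNCATCA, in capitals, in the same windows. They lie at chr1:191183284-191183583, chr7:126625421-126625720 and chr2:152344011-152344310, all on the minus strand.
Atf3: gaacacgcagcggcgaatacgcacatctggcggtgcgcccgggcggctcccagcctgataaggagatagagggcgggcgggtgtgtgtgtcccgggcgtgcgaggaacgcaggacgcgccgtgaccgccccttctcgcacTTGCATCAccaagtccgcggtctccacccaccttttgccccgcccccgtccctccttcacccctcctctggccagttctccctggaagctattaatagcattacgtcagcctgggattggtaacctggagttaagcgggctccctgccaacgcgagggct
Nupr1: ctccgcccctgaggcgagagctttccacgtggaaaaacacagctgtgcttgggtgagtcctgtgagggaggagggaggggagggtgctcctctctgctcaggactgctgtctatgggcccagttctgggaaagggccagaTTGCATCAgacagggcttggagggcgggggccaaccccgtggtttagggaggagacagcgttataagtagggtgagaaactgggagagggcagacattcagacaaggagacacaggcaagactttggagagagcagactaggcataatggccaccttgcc
Trib3: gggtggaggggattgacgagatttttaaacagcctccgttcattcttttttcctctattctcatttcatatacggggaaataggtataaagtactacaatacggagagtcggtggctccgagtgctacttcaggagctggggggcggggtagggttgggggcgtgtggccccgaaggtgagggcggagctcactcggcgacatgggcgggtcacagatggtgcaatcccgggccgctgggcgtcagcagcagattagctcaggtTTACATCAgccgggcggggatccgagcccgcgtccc
The element was in 8 of 26 windows of the tested list members (30.8%, 23 of 25 genes matched), against 2.32% for all tested genes and 3.97% for all windows. It was not found in the windows of Ddit4 and Ddit3, and only windows that hold it are shown. The list was made of genes of this pathway, so its share describes the list and not the routes.

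Cell cycle genes had slightly lower values in TV-LuM. Of 34 tested G2/M genes 29 had lower and 5 higher values, with a median of -0.14 and 8 apart with TV-LuM lower (6.15% of all genes). Of 38 S phase genes 31 had lower values, with a median of -0.19 and 6 apart, and of 13 E2F and Rb family genes 11 had lower values, with a median of -0.26 and 3 apart. Without AxLN-LuM 1 day 14 the medians were -0.08, -0.19 and -0.09, and the S phase list had 0.09 on plate 1 and -0.38 on plate 2. E2f8, an atypical E2F repressor, stood at -0.77, -1.16 and -1.13 in TV-LuM and at 0.59, -0.10 and -0.63 in AxLN-LuM, a difference of -0.97 (SE 0.28, limma adjusted p = 0.457) and of -0.65 without that sub-clone. Its partner E2f7 stood at -0.50, -1.20 and -0.92 and at -0.17, -0.19 and -0.60 (difference -0.55, SE 0.19), and AxLN-LuM 1 day 43 lay below TV-LuM 1 day 14. E2f1, an activating E2F, stood at -0.30, -0.96 and -0.80 and at -0.19, -0.20 and 0.00 (difference -0.56, SE 0.19). Mki67, the Ki-67 antigen of cycling cells, stood at -0.25, -0.35 and -0.28 and at 0.24, 0.32 and 0.03 (difference -0.49, SE 0.13), and Mcm10, a replication factor, at -0.51, -0.61 and -0.64 and at -0.20, -0.13 and -0.02 (difference -0.47, SE 0.13). Both were apart, at under 1 log2. Kif23, a kinesin of cytokinesis, differed by -0.48 (SE 0.13).

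Genes that the study picked out had differences under 1 log2 here. Hdac11, a histone deacetylase, stood at 0.41, 1.10 and 1.37 in TV-LuM and at -0.39, 0.36 and 0.35 in AxLN-LuM, a difference of 0.85 (SE 0.27, limma adjusted p = 0.457) and of 0.60 without AxLN-LuM 1 day 14. The 3 TV-LuM sub-clones were above the 3 node-derived ones, narrowly so for TV-LuM 1 day 14. The AxLN-LuM sub-clone titled removed, outside this comparison, stood at 2.43, above all 3 TV-LuM ones. Rrm2, a ribonucleotide reductase subunit, stood at -0.32, -0.92 and -0.43 and at 0.05, -0.92 and -0.36, a difference of -0.15 (SE 0.28, and 0.08 without AxLN-LuM 1 day 14) with overlap. Ezh1, a Polycomb methyltransferase, differed by 0.29 (SE 0.18), also with overlap. Over the 17 tested histone deacetylase and Polycomb genes the median was 0.04. Hdac11 was the one apart, with TV-LuM higher (5.51% of all genes). Of 12 tested genes that the study picked out from these samples 10 had lower values, with a median of -0.19, and such a list is not independent evidence of its direction.

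Genes for reaching and leaving vessels had no common direction. Of 23 genes of adhesion to vessel walls and extravasation, 10 had higher and 13 lower values in TV-LuM, with a median of -0.04. Itgb2, the leukocyte beta2 integrin subunit, stood at 1.65, 2.17 and -0.20 in TV-LuM and at -0.82, 0.81 and -0.46 in AxLN-LuM (difference 1.36, SE 0.60), high in both TV-LuM sub-clones of day 14 and below the parental level in that of day 38. L1cam, an adhesion molecule of nerve and tumor cells, differed by 0.66 (SE 0.28) and was apart. Itga6, the laminin receptor subunit alpha6, differed by -0.68 (SE 0.28, and -0.39 without AxLN-LuM 1 day 14), with overlap. In the coagulation and plasminogen list (14 tested, median 0.01), F3, tissue factor, the trigger of clotting, stood at 0.05, 0.13 and 1.69 and at -0.79, -0.22 and -0.44 (difference 1.11, SE 0.47), and its size came from TV-LuM 1 day 38. Plaur, the urokinase receptor, differed by -0.60 (SE 0.25, and -0.39 without AxLN-LuM 1 day 14).

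In the lymphatic routing list 9 of 13 genes had lower values in TV-LuM, with a median of -0.24 and -0.09 without AxLN-LuM 1 day 14. Pgf and Vegfb were the 2 apart, both with TV-LuM lower, as were 6.15% of all genes. Nrp1, a co-receptor of VEGF and semaphorins, differed by -0.41 (SE 0.32). In the Notch list (25 tested, median 0.02) Jag2, another ligand, stood at 0.13, 0.53 and 0.51 in TV-LuM and at 0.39, -1.92 and -2.30 in AxLN-LuM, a difference of 1.67 (SE 0.71, and 2.5 without AxLN-LuM 1 day 14). Its level was low in both late AxLN-LuM sub-clones, and AxLN-LuM 1 day 14 lay among the TV-LuM ones.

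Matrix and protease genes had wide spreads between sub-clones. Of 35 matrix genes 23 had higher values in TV-LuM, with a median of 0.17. The median was -0.10 on plate 1 and 0.06 without AxLN-LuM 1 day 14. Postn, the matricellular protein periostin, stood at 4.84, 1.86 and 0.99 in TV-LuM and at -3.53, 1.23 and 1.80 in AxLN-LuM, a difference of 2.73 (SE 1.44) that was 5.99 on plate 1, -0.37 on plate 2 and 1.05 without AxLN-LuM 1 day 14. Hspg2, the basement membrane proteoglycan perlecan, had -0.31, -0.28 and -0.33 against 0.64, 0.60 and -0.23 (difference -0.64, SE 0.21). Has2, a hyaluronan synthase, differed by -0.83 (SE 0.29). Hspg2 was the one matrix gene apart, with TV-LuM lower (6.15% of all genes). Of 26 protease genes 14 had higher and 12 lower values, with a median of 0.04. Hpse, heparanase, which cleaves heparan sulfate, stood at 0.78, 0.80 and 1.12 and at -0.05, 0.23 and -0.46 (difference 0.99, SE 0.31, and 1.01 without AxLN-LuM 1 day 14). Adam19, a membrane metalloprotease, stood at -1.32, -1.25 and -2.33 and at 0.94, -0.87 and -1.24 (difference -1.24, SE 0.50, and -0.58 without it). Hpse and Adam19 were the 2 proteases apart, in opposite directions (5.51% of all genes with TV-LuM higher and 6.15% with TV-LuM lower). Mmp3, stromelysin, stood at -3.15, 1.25 and -4.55 and at 2.67, -0.27 and -2.06, a difference of -2.26 (SE 1.44, and -0.98 without AxLN-LuM 1 day 14) with overlap.

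In the TGF-beta and BMP list (25 tested, median 0.00) Bmp7, a BMP ligand, stood at -3.53, -0.51 and -3.86 in TV-LuM and at 1.31, -1.53 and -0.40 in AxLN-LuM, a difference of -2.43 (SE 0.88). TV-LuM 1 day 14 and TV-LuM 1 day 38 were the lowest, and TV-LuM 2 day 14 lay among the node-derived ones. Tgfbr2, the type II TGF-beta receptor, stood at -0.35, -0.33 and -0.92 and at 0.19, 0.30 and -0.08, a smaller difference of -0.67 (SE 0.17) that was apart and was -0.59 on plate 1 and -0.54 on plate 2.

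Interferon and cytokine genes followed single sub-clones. The type I interferon list (22 tested) had a median of -0.02, with sub-clone medians of 0.88, 0.63 and 1.83 in TV-LuM and 0.27, 2.63 and 0.49 in AxLN-LuM. AxLN-LuM 1 day 36 was the highest and TV-LuM 1 day 38 the next, and without AxLN-LuM 1 day 14 the median was -0.61. Ifit1, an interferon-induced RNA-binding protein, stood at 0.67, -0.23 and 2.87 and at 0.74, 4.04 and 1.61 (difference -1.02, SE 0.96, and -1.72 without that sub-clone), and Irf7, a transcription factor of the response, at 0.97, 1.35 and 2.35 and at 0.55, 4.44 and 0.54 (difference -0.28, SE 1.04, and -0.93 without it). AxLN-LuM 1 day 36 and TV-LuM 1 day 38 were the highest and next highest in both genes. Oas2, an antiviral enzyme, was the one member apart (-0.89, SE 0.67), with TV-LuM lower (6.15% of all genes). Its TV-LuM level was 2.86 as a log2 intensity, under the filter of 3.11. Class I antigen processing genes had higher values in TV-LuM in 10 of 13, with a median of 0.15 and 0.10 without AxLN-LuM 1 day 14. Of the 13, 9 were higher on both plates (22.0% of all genes). In the mCh/rL parental line 6 of 13 were called higher (6.2% of all genes). Psmb8, an immunoproteasome subunit, stood at 2.00, 1.59 and 1.93 and at 0.57, 1.73 and 0.34 (difference 0.96, SE 0.35), with AxLN-LuM 1 day 36 among the TV-LuM values. Its neighbor Psmb9 differed by 1.04 (SE 0.45). H2-K1, a class I heavy chain in a family of close copies, differed by 0.51 (SE 0.18). It was the one apart, with TV-LuM higher (5.51% of all genes). Ccl2, a monocyte chemokine, stood at -1.38, -0.16 and 0.20 and at -0.82, 4.58 and 1.32 (difference -2.14, SE 1.14, and -3.40 without AxLN-LuM 1 day 14), high in both late AxLN-LuM sub-clones. Il1a, interleukin 1 alpha, stood at -1.30, -2.17 and -2.91 and at -5.05, 0.51 and -0.18, a difference of -0.56 (SE 1.55, and -2.29 without AxLN-LuM 1 day 14).

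Lipid genes had mostly higher values in TV-LuM, and for fatty acid synthesis this depended on AxLN-LuM 1 day 14. Cholesterol synthesis and uptake genes had higher values in TV-LuM in 18 of 20, with a median of 0.48, which was 0.72 on plate 1, 0.06 on plate 2 and 0.27 without AxLN-LuM 1 day 14, and 3 were apart with TV-LuM higher (5.51% of all genes). Cyp51, a sterol demethylase, stood at 0.64, 0.19 and 0.62 in TV-LuM and at -0.53, -0.42 and 0.14 in AxLN-LuM (difference 0.75, SE 0.31), and Pmvk, a kinase of the mevalonate pathway, at 0.47, 0.06 and 0.32 and at -0.52, -0.50 and -0.04 (difference 0.64, SE 0.23). In both the nearest sub-clones, TV-LuM 2 day 14 and AxLN-LuM 1 day 43, were close. Tm7sf2, a sterol reductase, differed by 0.81 (SE 0.39), and by 0.35 without AxLN-LuM 1 day 14. In the mCh/rL parental line 5 of the 20 cholesterol genes were called higher and 2 lower, against 6.2% and 6.6% of all genes. Of 29 genes of fatty acid uptake and oxidation 21 had higher values, with a median of 0.15 and 0.06 without AxLN-LuM 1 day 14. Of the 29, 6 were apart with TV-LuM higher (5.51% of all genes) and 2 with TV-LuM lower (6.15%). Between the parental lines their median was 0.17 for mCh/rL over GFP/fL. In mCh/rL 7 were called higher and 1 lower by limma, and the part of the lines was not tested. Acaa2, a mitochondrial thiolase, stood at 0.77, 0.79 and 0.73 and at -0.64, 0.46 and 0.54 (difference 0.64, SE 0.27, and 0.26 without AxLN-LuM 1 day 14), and Cpt1c, a brain-type carnitine palmitoyltransferase, at -0.18, -0.86 and 0.21 and at 0.92, 0.47 and 0.44 (difference -0.89, SE 0.25). Acot2, a mitochondrial thioesterase, differed by 1.24 (SE 0.52) through TV-LuM 2 day 14 at 1.95. Of 21 genes of fatty acid synthesis and desaturation 14 had higher values, with a median of 0.11. Without AxLN-LuM 1 day 14 it was -0.02, with 9 higher and 12 lower. Scd1, a fatty acid desaturase, differed by 0.67 (SE 0.26). The 21 p53 targets had a median of 0.23, and of 0.14 without AxLN-LuM 1 day 14. Among them Perp, a desmosome-associated protein, stood at 0.47, 0.39 and 0.29 and at -0.11, -0.22 and -0.17. Its difference was 0.55 (SE 0.11, limma adjusted p = 0.422), with the sub-clones of each group close together. Btg2, an antiproliferative gene, differed by 1.03 (SE 0.40, and 0.68 without AxLN-LuM 1 day 14).

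**Figure D5:**
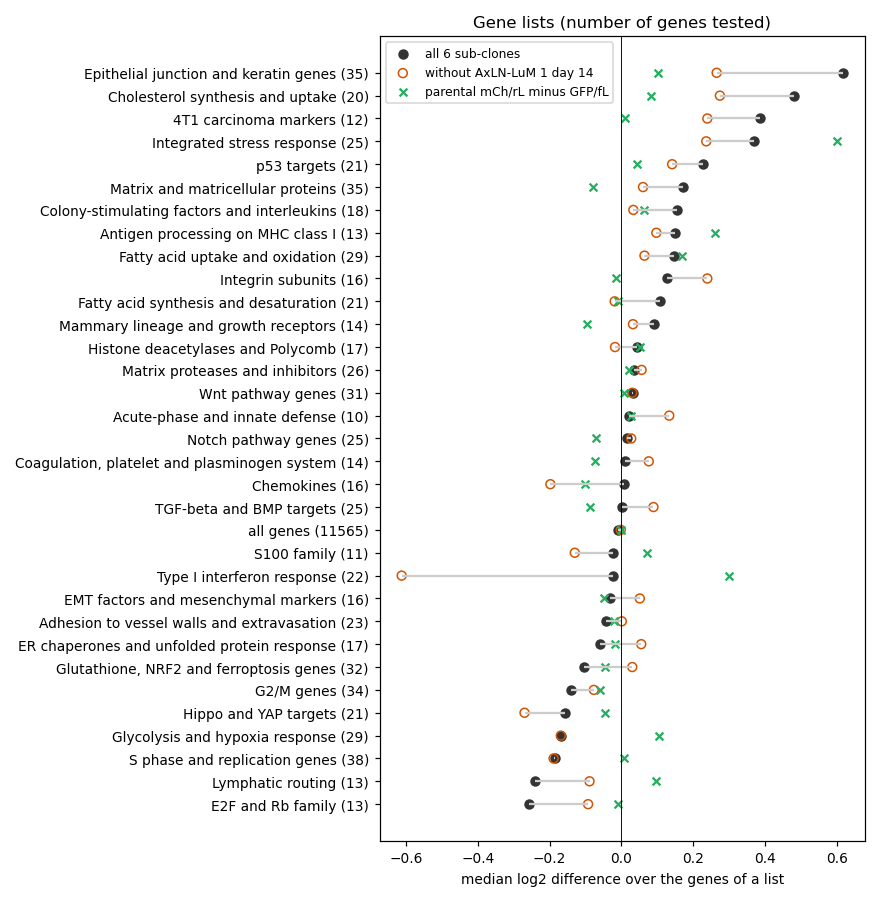
Median log2 difference (horizontal axis) over the tested genes of each list with at least 10 of them (rows, number in brackets), for TV-LuM minus AxLN-LuM with all 6 sub-clones (filled), without AxLN-LuM 1 day 14 (open) and for parental mCh/rL minus GFP/fL (crosses). The epithelial list moves from 0.62 to 0.26, the interferon list from -0.02 to -0.61, and the integrated stress response is the list with the largest cross, at 0.60.

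TV-LuM 1 and AxLN-LuM 1 of day 14 are the pair matched for day and plate, with 3 arrays each and 1 sub-clone a side, so no test was made and the SE above does not apply. At least 1 log2 with arrays that did not overlap was reached by 390 genes with TV-LuM higher (3.37%) and 350 with TV-LuM lower (3.03%). Postn, at 8.36 log2, had the largest difference, followed by Mal2, a proteolipid of apical transport (5.81), Krt14 (5.62), Cldn3 (5.49), the glycolipid galactosyltransferase gene B4galt6 (5.39) and Rab25 (5.33). On the other side were Hhip, the Hedgehog-interacting protein (-6.40), Mmp3 (-5.82), Bmp7 (-4.84), Dmp1 (-4.73), the RNA-binding protein gene Rbpms (-4.52) and Prl3d3 (-4.34). In several of them AxLN-LuM 1 day 14 was far from the other node-derived sub-clones: Mal2 stood at 1.32, -0.16 and 2.10 in TV-LuM and -4.49, -0.29 and 0.73 in AxLN-LuM, and Hhip at -4.06, 1.73 and -1.96 and 2.34, -0.21 and -3.95. TV-LuM 1 day 38 was beside or beyond TV-LuM 1 day 14 in Mal2, Krt14, Cldn3, Rab25, Mmp3 and Bmp7. Prl3d3 passed the intensity filter only through AxLN-LuM 1 day 14, with a mean of 3.02 over the other arrays, so it had to differ. Without AxLN-LuM 1 day 14 the difference between routes was 0.87 for Mal2, 0.20 for B4galt6, 0.65 for Hhip and -0.33 for Rbpms, against 2.44, 1.78, -0.82 and -0.99 with it. Of the 35 epithelial genes 20 passed this rule with TV-LuM higher and 0 with TV-LuM lower. The pair is also the pair of sub-clones on opposite sides of the reporter-line difference, and day 14 route and line cannot be told apart in it.

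Genes that set the late or the early sub-clones apart were mostly those of 1 sub-clone. With the late sub-clones alone (TV-LuM day 38 against AxLN-LuM days 36 and 43, the spread taken from all groups) limma called 11 genes, 7 with higher and 4 with lower values in TV-LuM. Tpm2, a tropomyosin of actin filaments, stood at 4.37 in TV-LuM 1 day 38, at 1.00 and 0.65 in the TV-LuM sub-clones of day 14 and at -0.17, 0.01 and 0.20 in AxLN-LuM, a late difference of 4.26 (limma adjusted p = 0.006). It passed the intensity filter only through that sub-clone, with a mean of 3.05 over the other arrays against the filter of 3.11. Rhox5, also among the late genes called, passed in the same way, with a mean of 3.01. Both genes therefore had to differ. Arg1, arginase, stood at 4.98 in TV-LuM 1 day 38, at 1.34 and 0.25 in the earlier ones and at -0.05, 1.08 and 0.19 in AxLN-LuM (late difference 4.35, limma adjusted p = 0.012). Epgn, the EGF receptor ligand epigen, had a late difference of 3.86 and Ccnd2, cyclin D2, of -1.80. TV-LuM 1 day 38 stood alone in each of them. With the day 14 sub-clones alone limma called 10 genes, 6 with higher values in TV-LuM, and these rested on AxLN-LuM 1 day 14: Trp53i11 stood at 0.40 and 0.48 in TV-LuM of day 14 and at -2.76 in that sub-clone, and Sema6d, a transmembrane semaphorin, at -0.91 and -0.49 against 2.24. Both late AxLN-LuM sub-clones lay near the TV-LuM values of day 14 in Sema6d, at -0.56 and -1.31. Prl3d3, also among the day 14 genes called, passed the intensity filter only through AxLN-LuM 1 day 14. Its mean over the other arrays was 3.02, so it had to differ. A single sub-clone on one side is assumed here to vary like the other groups.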

How the data were processed

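Affymetrix Mouse Gene ST arrays, 48 in all, were hybridised with RNA of cultured sub-clones and parental lines. Per the study's methods and the submitters' processing notes, the authors ran RMA (Affymetrix Expression Console, version not given in the sources used here), brought the plates to a common total with a single factor taken from summed expression, and deposited the combined values as linear intensities. RMA and this scaling equalise overall level, so a global change between plates or sub-clones cannot be seen. Intensities summed to between 6414229 and 6658225 per array, no 2 arrays were identical, and the number of arrays limits the precision.

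Of 41345 probe sets 23521 carried 1 gene symbol, 1820 several and 16004 none. Of those with 1 symbol 23328 were matched through Entrez IDs to RefSeq, and 20158 were protein-coding, for 18964 genes. Where a gene had several probe sets (996 genes) the brightest was used. Genes with a mean log2 intensity over 3.11, the median of all probe sets, were tested (11565).

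Log2 values were reduced by the parental mean of their plate. The labels name plate 2 for 6 arrays and no plate for 42, so the plate was taken from the column order, 24 arrays each; a plate profile over 2000 probe sets separated the plates (highest slope -0.126 on plate 1, lowest 0.167 on plate 2). Arrays of a sub-clone were averaged. The titles also call an array of MFP 1 day 28 removed, and the arrays of that sub-clone lay on both plates. limma 3.58.1 (lmFit and eBayes, R 4.3.3) was fitted over 11 sub-clones of 4 groups, with Benjamini-Hochberg adjustment over all genes tested and calls at an adjusted p under 0.05. The labels do not say which sub-clones came from separate mice, so p-values measure the spread between these sub-clones only. Genes were named by a rule: the 12 largest differences in each direction among genes apart with an unadjusted p under 0.01, and members of gene lists; further genes, such as those of the late and the day 14 comparisons, were named after their values were seen. Members and lists were chosen with earlier results of these data known. Alternatives were other baselines, normalizations, filters, replicate units, plates, days and the removal of each sub-clone. Promoters are from RefSeq and were matched by symbol.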

Additional observations from a re-analysis of the deposited data

Results flagged for a closer look

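The difference between routes itself differed between the day 14 and the late sub-clones in 3 of 11565 genes by limma, as an interaction of route and day (lowest adjusted p 0.042, with 729 genes at an unadjusted p under 0.05). Each day class rests on 1 sub-clone on one side, AxLN-LuM 1 day 14 or TV-LuM 1 day 38. The late difference minus the day 14 difference was -3.230 for Klf8, a Krüppel-like transcription factor, which stood at -0.65, -0.64 and -1.97 in TV-LuM and at -1.71, 0.36 and 0.02 in AxLN-LuM. It was 3.705 for Rhox5, a homeobox gene of the X chromosome, where TV-LuM 1 day 38 stood at 3.38 and the other 5 sub-clones between -0.35 and -0.10. Rhox5 passed the intensity filter of 3.11 only through that sub-clone, with a mean log2 intensity of 3.01 over the other arrays, so it had to differ. It was -5.423 for Ubqln2, a ubiquilin that shuttles proteins to the proteasome, which stood at 0.37, -0.73 and -2.47 in TV-LuM and at -3.25, 0.10 and -0.34 in AxLN-LuM. Groups of 3 sub-clones were too small for a check of single outlying samples.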

How the results depend on the processing

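Between the routes 0 genes were called with other baselines, quantile normalization, other filters, robust moderation, the probe set of largest variance, only the 6 sub-clones, the 13 sub-clones, plate as a covariate and plate 1 alone (lowest adjusted p between 0.112 and 0.824), and without each of the 6 sub-clones in turn (0 to 0 genes, lowest adjusted p 0.077 to 0.745). With arrays counted as replicates limma called 1986 genes, which treats repeat samples of one culture as independent, and 1554 with the replicate block. The numbers do not pair arrays: same-numbered arrays correlated at -0.083 to 0.055 in their deviations over 45 pairs. With a random block for each sub-clone 8 were called, with only day 14 sub-clones 10, with only late ones 11 and with only plate 2 sub-clones 1, Sulf2 (3.17, adjusted p 0.021). Only arrays of the 6 sub-clones enter the fit with the random block. Fewer sub-clones and other spreads enter the rest, and the cause was not tested.

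Among named genes, which were not called, differences turned sign as follows. With the sub-clones titled removed put in their groups they were Vim (0.126), Ezh1 (-0.013), Rrm2 (0.458), Mki67 (0.007) and Hhip (0.004). With only day 14 sub-clones they were Ccl2 (0.044), Jag2 (-0.059), Irf7 (0.614) and Il1a (3.312). With only late sub-clones they were Trib3 (-0.347), Ddit3 (-0.071), Rrm2 (0.212), Itgb2 (-0.371), Postn (-0.528), Hhip (0.124) and Ifit1 (0.050). On plate 1 alone they were Rrm2 (0.115) and Il1a (0.965), and on plate 2 alone Rab25 (-0.215), Mmp3 (0.413), Postn (-0.370), B4galt6 (-0.279), Hhip (3.838), Rbpms (1.926) and Irf7 (1.314). Without single sub-clones the ranges that crossed 0 were Rrm2 (-0.401 to 0.083), Hhip (-2.493 to 0.654), Rbpms (-1.946 to 0.125), Irf7 (-0.937 to 1.016) and Il1a (-2.293 to 0.485). The cause was not tested. In the AxLN-LuM sub-clone titled removed, Slc40a1 (2.25), Atf3 (2.96), Mall (2.14) and Acox2 (1.66) lay among or above the TV-LuM values. Sulf2 (-0.54), St6galnac2 (-0.47) and Ddit4 (0.27) lay below them.

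Genes near the filter of 3.11, among them Pgf and Havcr2 in TV-LuM and Slc40a1 in AxLN-LuM, have signal close to array background. Their differences are compressed. With 3 sub-clones a group, plates and days split unevenly and the line of TV-LuM unlabelled, route, plate, day and line cannot be told apart for most genes.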
